A study of Homo sapiens with 59 samples.

Results

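The nuclear genes for the subunits of the mitochondrial respiratory chain were followed in HepG2 cells, a human hepatocellular carcinoma line, after 24 h with water extracts of medicinal plants. The members were the 91 protein-coding genes of 60675 in the table whose symbol begins with NDUFA, NDUFB, NDUFC, NDUFS or NDUFV, or with UQCR, COX4I, COX5, COX6, COX7, COX8 or ATP5, together with SDHA to SDHD and CYC1, with assembly factors left out. Complex I had 38 members, complex II 4, complex III 10, complex IV 19 and complex V, the ATP synthase, 20. A filter on low counts left 16641 genes for testing, 84 members among them, and all 7 members that did not pass belonged to complexes IV and V.

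The 59 libraries formed 20 groups. Cells received the PI3K inhibitor wortmannin at 10 uM, the positive control of the study, or 1 of 6 water extracts. Coptidis Rhizoma was given at 8.4, 42 and 210 ug/mL. Doses of 20, 100 and 500 ug/mL were used for the other 5, namely Scutellariae Radix, Zizyphi Fructus, Pinelliae Tuber, Zingiberis Rhizoma Recens (fresh ginger by its name) and Zingiberis Rhizoma (dried ginger). The controls received the vehicle, which is 0.1% DMSO by the sample labels and 2% by the series text. The Coptidis doses were lower because, by the design text, an extract with an IC20, a mildly inhibitory concentration, under 500 ug/mL was used at its IC20 and at dilutions of it. There were 2 libraries of Pinelliae Tuber 20 ug/mL and 3 of every other group. Nothing in the labels says that the libraries of a group came from separate cultures, so the p-values measure the spread between these libraries, which may be technical.

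Library totals ran from 21582603 to 31392069 counts, with a median of 25834162. All 9 hepatocyte markers were at 20.2 CPM (counts scaled to the size of the library) or more in every library. The 12 leukocyte, fibroblast and endothelial markers summed to 29.3 to 90.1 CPM, nearly all of it CD68, a lysosomal protein that is used as a macrophage marker and was at 25.3 to 86.5 CPM; PTPRC, CD3E and DCN stayed at or below 0.0403 CPM and COL1A2 was at 0. By counting statistics 3 libraries stood apart from both others of their group: the first replicate with Zizyphi Fructus 20 ug/mL, the first with Zingiberis Rhizoma 500 ug/mL and the third with Pinelliae Tuber 100 ug/mL. The sample titles give the vehicle and wortmannin libraries a different number from all extracts, and its meaning is not stated. If that number marks an experiment, it cannot be told apart from extract against vehicle, whereas comparisons between doses of 1 extract stay within a number.

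The respiratory chain passes electrons from NADH through complex I, or from succinate through complex II, to ubiquinone, complex III and cytochrome c, and complex IV hands them to oxygen. Complexes I, III and IV pump protons across the inner mitochondrial membrane, and the returning protons drive the rotor of ATP synthase. Most subunits are encoded in the nucleus and imported, a smaller set is encoded by mitochondrial DNA, and all 4 subunits of complex II are nuclear. Promoters of nuclear subunit genes are known for binding sites of NRF1, of ETS-family factors such as GABP (also called NRF2 in older literature) and of YY1.

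The promoter windows of the members that the results below turn on are shown for reference, each running from 250 bases before to 50 bases after the RefSeq start on GRCh38.p14. SDHA, ATP5IF1, NDUFB10, NDUFV2 and ATP5MK are printed because most of the named results, in either direction, concern them. Letters are 5′ to 3′ on the gene's strand, and capitals mark matches on either strand to GCGCA, 1 free base and GCGC (NRF1), CCGGAAG (ETS), AAGATGGC (YY1) or ACGTG (the core of the hypoxia-response element).
SDHA, chr5:218070-218369, plus strand: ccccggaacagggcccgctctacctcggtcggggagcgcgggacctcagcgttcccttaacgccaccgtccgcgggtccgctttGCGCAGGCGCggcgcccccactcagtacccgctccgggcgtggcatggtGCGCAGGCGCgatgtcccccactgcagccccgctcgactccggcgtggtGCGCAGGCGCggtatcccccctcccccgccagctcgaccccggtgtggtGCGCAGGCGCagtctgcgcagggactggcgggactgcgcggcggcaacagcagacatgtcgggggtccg
ATP5IF1, chr1:28235874-28236173, plus strand: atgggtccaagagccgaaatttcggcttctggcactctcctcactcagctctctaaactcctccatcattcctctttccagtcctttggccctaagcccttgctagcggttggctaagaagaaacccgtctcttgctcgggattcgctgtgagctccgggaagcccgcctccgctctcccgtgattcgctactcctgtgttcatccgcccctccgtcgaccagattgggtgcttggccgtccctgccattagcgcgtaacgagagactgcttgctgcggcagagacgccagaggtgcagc
NDUFB10, chr16:1959288-1959587, plus strand: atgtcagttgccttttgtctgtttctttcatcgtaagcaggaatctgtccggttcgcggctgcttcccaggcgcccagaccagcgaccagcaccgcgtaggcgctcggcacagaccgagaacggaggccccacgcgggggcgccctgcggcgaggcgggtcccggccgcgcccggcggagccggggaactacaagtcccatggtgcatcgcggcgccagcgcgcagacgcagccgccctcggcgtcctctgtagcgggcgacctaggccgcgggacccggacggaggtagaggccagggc
NDUFV2, chr18:9102449-9102748, plus strand: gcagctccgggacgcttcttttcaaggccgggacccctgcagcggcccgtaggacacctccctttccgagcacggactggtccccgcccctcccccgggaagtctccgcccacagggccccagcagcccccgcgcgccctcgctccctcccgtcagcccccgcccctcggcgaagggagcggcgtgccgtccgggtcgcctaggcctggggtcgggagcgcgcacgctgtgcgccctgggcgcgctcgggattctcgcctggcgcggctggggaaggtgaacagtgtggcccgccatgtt
ATP5MK, chr10:103396426-103396725, minus strand: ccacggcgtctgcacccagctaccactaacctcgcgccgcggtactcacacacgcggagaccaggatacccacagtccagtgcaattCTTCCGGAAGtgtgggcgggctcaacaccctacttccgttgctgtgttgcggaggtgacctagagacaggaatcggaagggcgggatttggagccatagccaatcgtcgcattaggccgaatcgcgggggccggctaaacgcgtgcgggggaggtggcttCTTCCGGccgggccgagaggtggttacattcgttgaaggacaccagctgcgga
The SDHA window held 4 NRF1 matches and was 74.7% G and C. The ATP5MK window held 3 ETS matches, of which the first 2 overlap as a palindrome read on both strands. The windows of ATP5IF1, NDUFB10 and NDUFV2 held none of these letter strings, which says only that the strings are not in these 300 bases.

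A window was found for 73 of the 91 members, with a median G and C content of 61.0%. The NRF1 string was in 17 of them (23.3%), against 8.58% of the 15843 protein-coding windows in the RefSeq table. The ETS string was in 20 (27.4%), against 14.23%, and the YY1 string in 11 (15.1%), against 3.91%. The hypoxia core ACGTG, in 24.7% of member windows and 23.71% of all, and TATAAA, in 9.6% and 9.63%, were at the background share. The NRF1 string stood in 6 of 33 complex I windows, 2 of 3 in complex II, 4 of 7 in complex III, 1 of 16 in complex IV and 4 of 14 in complex V, and no complex IV window held the YY1 string.

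In vehicle cells the members spanned a wide range of transcript levels. Levels of different genes are given as CPM per kilobase of exonic length. ATP5F1B, the catalytic beta subunit of ATP synthase, was highest at 279.2 CPM per kb, followed by COX8A, a small complex IV subunit, at 210.7, and NDUFS5, an accessory complex I subunit, at 184.1. The medians of the tested members were 21.47 CPM per kb in complex I, 21.09 in complex II, 48.34 in complex III, 40.46 in complex IV and 34.75 in complex V. This order depends on the length used: COX4I1 was at 40.46 CPM per exonic kb but 270.8 per kb of its principal transcript, and ATP5MF, a small membrane subunit of ATP synthase, at 48.2 and 359.7.

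Complex IV is the complex with the most tissue-specific paralogs, and in HepG2 cells the forms known from muscle, lung or testis were nearly silent. COX6A2, COX7B2 and COX8C had 0 counts over all 59 libraries. COX4I2, the lung-enriched form of subunit IV, had 1 count in all, COX6B2 46 and COX7A1 49, and the complex V paralog ATP5MGL 37. Their widely expressed partners COX4I1, COX6A1, COX6B1, COX7A2, COX7B and COX8A averaged 201.7, 115.3, 112.4, 75.7, 54.4 and 108.2 CPM over all libraries. NDUFA4L2, the hypoxia-inducible paralog of the complex IV subunit NDUFA4, passed the filter with 218 counts in all libraries. Its highest library was at 0.525 CPM. It may have passed only through groups where it is high, so its rises below are not read as support. All 3 genes for the c ring of ATP synthase, which encode the same mature protein, were expressed, with ATP5MC3 averaging 230.9 CPM, ATP5MC2 100.7 and ATP5MC1 61.9 over all libraries. UQCRHL (7401 counts) and the readthrough genes NDUFC2-KCTD14 (158 counts) and ATP5MF-PTCD1 (13892 counts) share sequence with UQCRH, NDUFC2 and ATP5MF, so their values are uncertain. SDHA has pseudogenes in the table whose counts were 14.4% of the counts of SDHA and those pseudogenes together.

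A change was called where the adjusted p of edgeR's quasi-likelihood test, over all 16641 genes, was under 0.05, and each call is read against the percentage of all genes called in the same comparison. Coptidis Rhizoma 210 ug/mL moved the most members: 50 of 84 were called (59.5%), 7 higher and 43 lower, against 69.4% of all genes. At 42 ug/mL 28 were called (33.3%), 15 higher and 13 lower, against 46.9% of all genes, 23.4% higher and 23.5% lower. At 8.4 ug/mL 6 were called, 4 higher and 2 lower, against 16.0% of all genes, 8.58% higher and 7.39% lower. Scutellariae Radix 500 ug/mL gave 23 calls (27.4%), 9 higher and 14 lower, against 50.2% of all genes. Zingiberis Rhizoma Recens 500 ug/mL gave 24 (28.6%), 3 higher and 21 lower, against 46.0%, and Zingiberis Rhizoma 500 ug/mL 16, 6 higher and 10 lower, against 42.4%. Wortmannin gave 9 (10.7%), 3 higher and 6 lower, against 32.2%. In each of these comparisons the members' share called in either direction was below that of all genes. By direction this did not hold everywhere: at Coptidis Rhizoma 210 ug/mL 51.2% of the members were lower, against 34.5% of all genes, and 8.33% higher, against 34.8%, and at Zingiberis Rhizoma Recens 500 ug/mL 25.0% were lower, against 22.5%. Single libraries moved some of these counts: the 28 at Coptidis Rhizoma 42 ug/mL came to 18 without vehicle replicate 1 or extract replicate 1, and the 6 at 8.4 ug/mL to 3 without vehicle replicate 1 or 2 or extract replicate 3 and to 2 without vehicle replicate 3. The 16 with Zingiberis Rhizoma 500 ug/mL came to 26 without its replicate 2, and the 9 with wortmannin to 5 without vehicle replicate 1 or 2 or wortmannin replicate 1 and to 4 without wortmannin replicate 2.

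**Figure D1:**
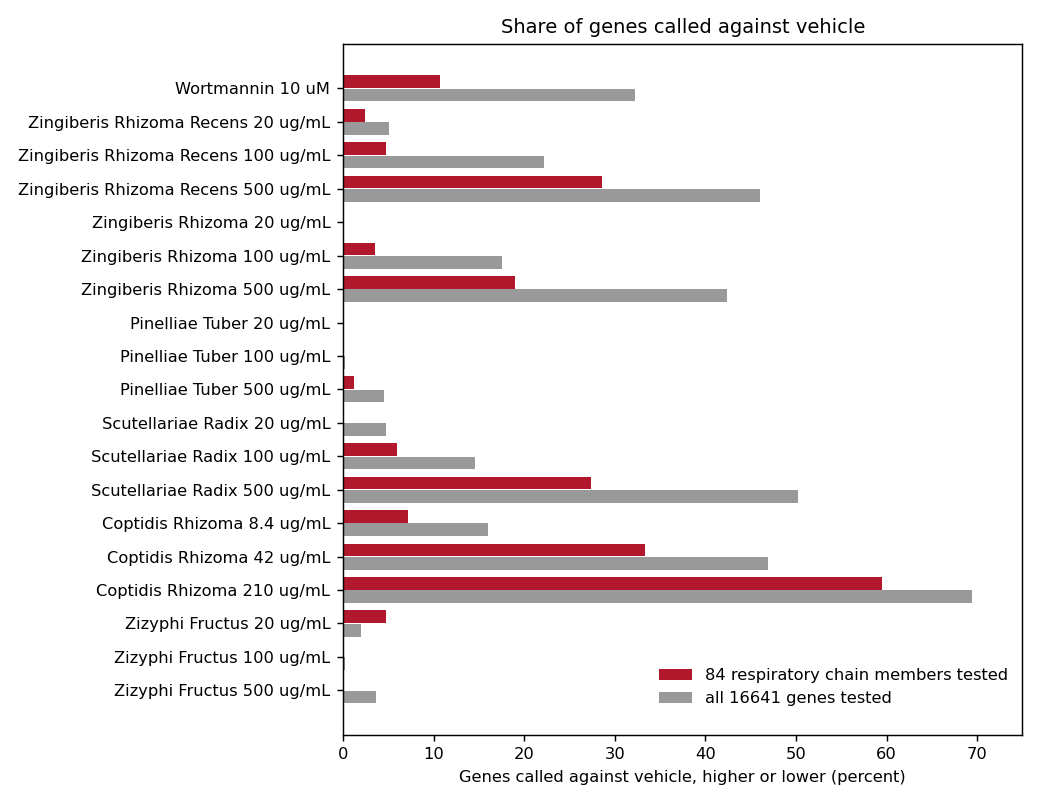
Percentage of genes called against vehicle (x axis, %, adjusted p under 0.05) in each of 19 comparisons (y axis), for the 84 tested members (red bars) and all 16641 genes tested (grey bars). The red bar is longest for Coptidis Rhizoma 210 ug/mL, at 59.5% beside 69.4% of all genes.

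The middle and low doses of the other extracts gave few calls. Zingiberis Rhizoma Recens gave 4 calls at 100 ug/mL (all lower, with 22.2% of all genes called and 10.2% lower) and 2 at 20 ug/mL (both higher, with 5.1% called and 2.75% higher). Zingiberis Rhizoma gave 3 at 100 ug/mL (all lower, with 17.5% called and 7.75% lower). Scutellariae Radix gave 5 at 100 ug/mL (4 higher and 1 lower, with 14.6% of all genes called, 7.27% higher and 7.34% lower). Pinelliae Tuber gave 1 at 500 ug/mL (lower, with 4.57% called and 1.93% lower) and Zizyphi Fructus 4 at 20 ug/mL (all higher, with 1.99% called and 1.23% higher). No member was called by edgeR for Zingiberis Rhizoma 20 ug/mL (0.0841% of all genes), Pinelliae Tuber 20 ug/mL (0.00601%) and 100 ug/mL (0.204%), Scutellariae Radix 20 ug/mL (4.74%), and Zizyphi Fructus 100 ug/mL (0.228%) and 500 ug/mL (3.61%). In these 6 comparisons 7, 6, 9, 10, 14 and 6 members had an unadjusted p under 0.05, in that order, and DESeq2 called 0 in each. The percentages of all genes are at the adjusted threshold, and none is given at the unadjusted cut. All 19 comparisons share the same 3 vehicle libraries, so their calls are not independent of each other.

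In all 19 comparisons with vehicle the median absolute change of the members was smaller than that of all genes tested. At Coptidis Rhizoma 210 ug/mL the median absolute log2 change was 0.211 over the members and 0.46 over all genes, and 13 members (15.5%), against 46.8% of all genes, were past 0.5. At Zingiberis Rhizoma Recens 500 ug/mL the medians were 0.113 and 0.226, at Scutellariae Radix 500 ug/mL 0.0927 and 0.26, at Zingiberis Rhizoma 500 ug/mL 0.0941 and 0.21, and with wortmannin 0.067 and 0.169. The order was the other way round for Zizyphi Fructus 500 against 20 ug/mL, at 0.11 over the members and 0.104 over all genes, and between the gingers at 500 ug/mL, at 0.0838 and 0.0816. These medians were not tested, and the members and all genes were not matched in level. The gap also stood for Zingiberis Rhizoma 20 ug/mL against vehicle, at 0.0577 and 0.0708, where 0.0841% of all genes were called. The smaller medians are therefore not read as stability of the members. Between the lowest and highest of the 20 group means, UQCRC1, a core protein of complex III, spanned a ratio of 1.09 and NDUFA10, an accessory subunit of complex I, 1.10, whereas ATP5MC1 spanned 1.95, ATP5F1D, the delta subunit of the F1 head, 1.84 and NDUFB10 1.80.

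**Figure D2:**
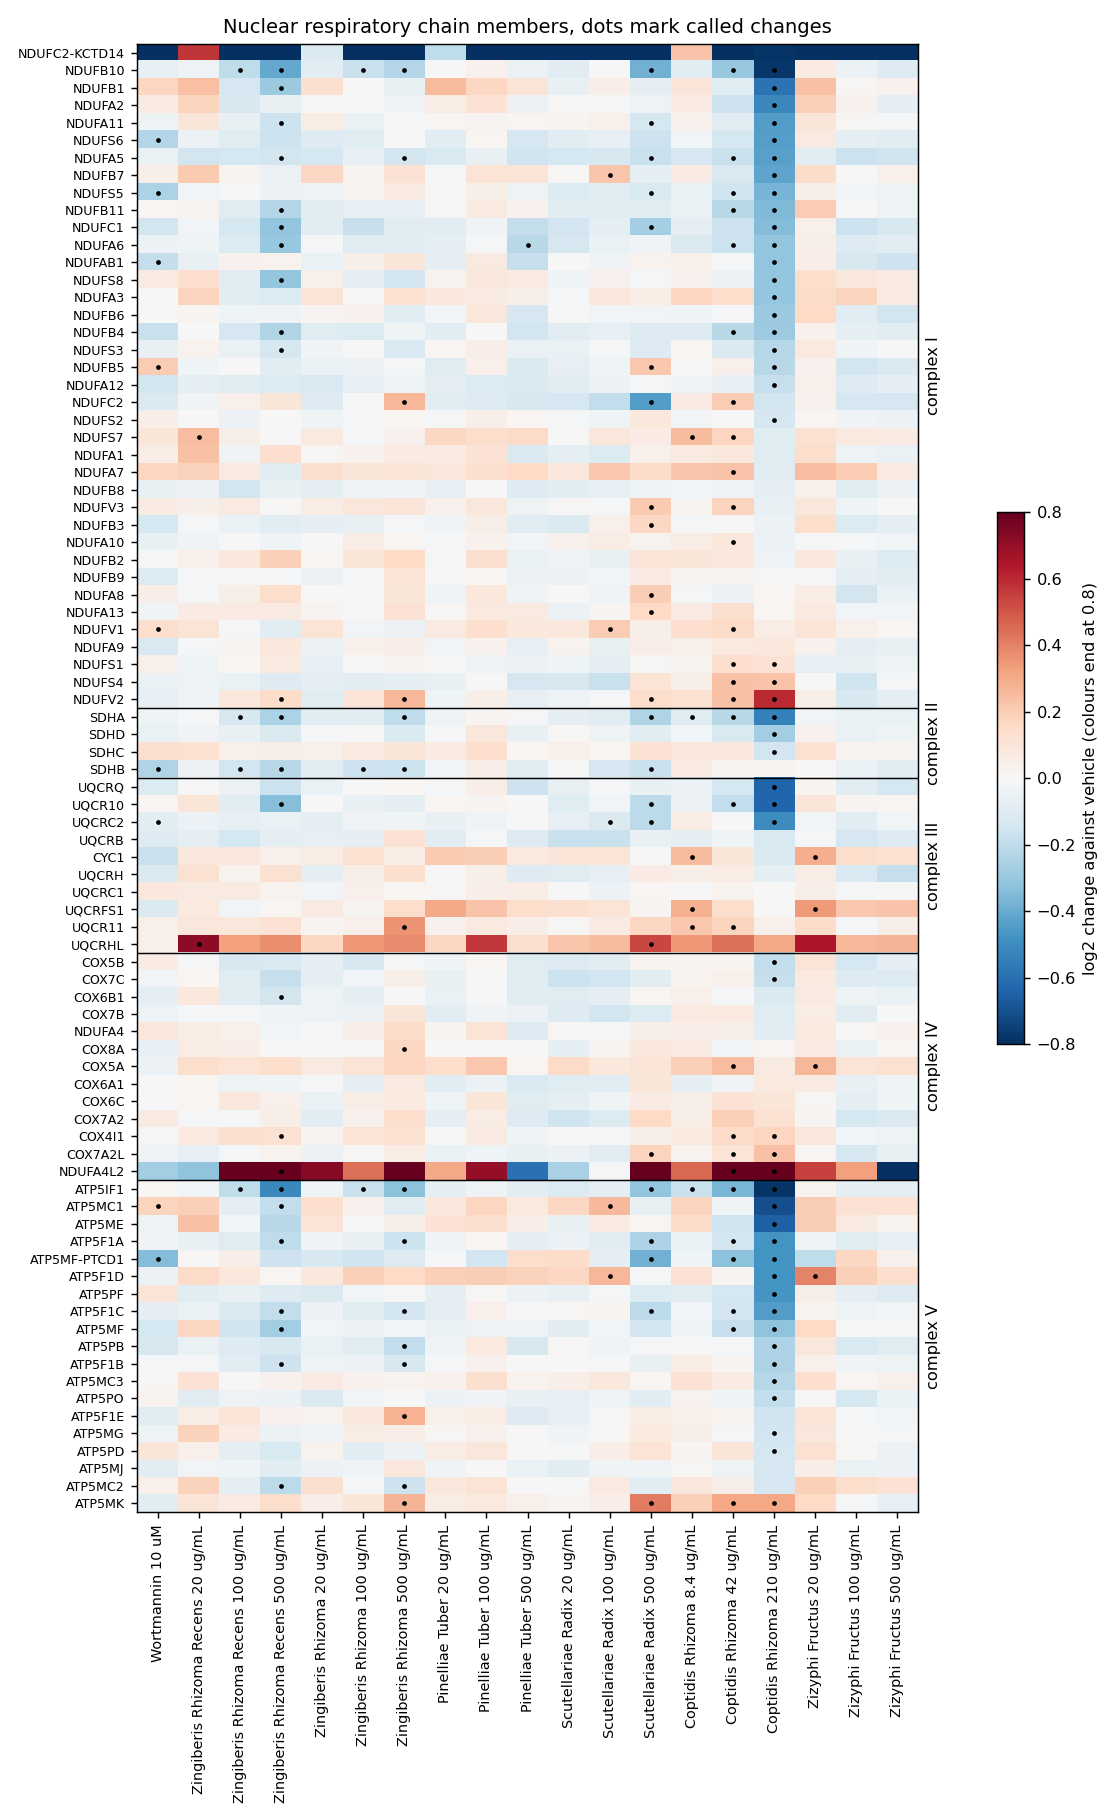
Log2 change against vehicle (colour, ending at 0.8 in each direction) of the 84 tested members (rows, grouped by complex and sorted within it by the change at Coptidis Rhizoma 210 ug/mL) in 19 comparisons (columns), with a dot on each change that was called. The Coptidis Rhizoma 210 ug/mL column is mostly blue, lower than vehicle, in complexes I and V. The deep colours of NDUFA4L2 and NDUFC2-KCTD14 rest on low counts, 218 and 158 over all libraries. UQCRHL, with 7401 counts, shares sequence with UQCRH, so its values are uncertain.

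With Coptidis Rhizoma 210 ug/mL, the calls on the lower side were spread over complexes I, II and V. Most genes of complex III were not called, although its summed transcripts fell, and complex IV had calls in both directions. Of the tested members, 20 of 38 fell in complex I, 3 of 4 in complex II, 3 of 10 in complex III, 2 of 13 in complex IV and 15 of 19 in complex V, against 34.5% of all genes lower. Those that rose were 3 of 38 in complex I, 0 of 4 in complex II, 0 of 10 in complex III, 3 of 13 in complex IV and 1 of 19 in complex V, against 34.8% of all genes higher. The median log2 change was -0.205 in complex I, -0.215 in complex II, -0.094 in complex III, 0.070 in complex IV and -0.245 in complex V, with -0.154 over all members and -0.003 over all genes. In bulk RNA, fewer cells of a type and less RNA per cell cannot be told apart.

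Summed over members, transcripts for the 5 complexes came to 7218 ± 216 CPM in Coptidis Rhizoma 210 ug/mL libraries and 8213 ± 112 CPM in vehicle libraries (SD, n = 3 each), and the libraries did not overlap (6981 to 7405 and 8123 to 8339 CPM). Complex V summed to 2342 ± 77 CPM with the extract and 2885 ± 23 CPM with vehicle, and complex I to 2359 ± 66 and 2577 ± 48 CPM. Complex III summed to 935 ± 26 and 1107 ± 22 CPM, and complex II to 349 ± 12 and 427 ± 4 CPM. In neither of these did the libraries overlap. Complex IV, at 1232 ± 43 CPM with the extract and 1216 ± 20 CPM with vehicle, differed by less than the spread between libraries. The same sums at the lower doses, 8398 ± 260 CPM at 8.4 ug/mL and 8230 ± 158 CPM at 42 ug/mL (n = 3 each), overlapped or lay near the vehicle values.

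Within complex V, 4 of 5 tested genes of the F1 head, where ATP is made, fell, with a median of -0.447, against 34.5% of all genes lower. ATP5F1A, the alpha subunit, was at 409.4, 386.9 and 407.5 CPM in the 3 Coptidis Rhizoma 210 ug/mL libraries and at 557, 565 and 555 CPM in the vehicle libraries, a log2 change of -0.48 ± 0.04 (SE; adjusted p = 8.7e-14). ATP5F1B, the beta subunit, was at 560, 537 and 545 CPM with the extract and at 638.6, 645.1 and 661.5 CPM with vehicle (-0.24 ± 0.03, adjusted p = 2.79e-09). For both, every extract library lay below every vehicle library. The gamma subunit gene ATP5F1C (-0.45 ± 0.04, adjusted p = 9.97e-13) and the delta subunit gene ATP5F1D (-0.48 ± 0.08, adjusted p = 4.6e-07) fell too, and ATP5F1E, the epsilon subunit, was not called (-0.16, adjusted p = 0.0758).

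In the stalk and membrane part of ATP synthase, all 4 peripheral stalk genes fell (median -0.220), led by ATP5PF at -0.47. In the c ring, the proton-driven rotor, ATP5MC1 was at 37.7, 35.6 and 37.1 CPM in Coptidis Rhizoma 210 ug/mL libraries, against 60.4, 60.2 and 58.8 CPM in vehicle libraries (-0.70 ± 0.07, adjusted p = 6.35e-13). ATP5MC3 fell by less (-0.23, adjusted p = 0.00792), a call lost without replicate 2 of the extract group, and ATP5MC2 was at -0.13 (adjusted p = 0.0761). The difference between these 3 changes was not tested. ATP5MK, also known as DAPIT, a small protein associated with ATP synthase dimers, was the only complex V gene called higher: it was at 48.5, 40.2 and 43.9 CPM with the extract and at 37.0, 35.2 and 34.9 CPM with vehicle (0.31 ± 0.10, adjusted p = 0.00725), and the call was lost without replicate 1 of the extract group (0.24, adjusted p = 0.0652).

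ATP5IF1, the inhibitor protein that blocks ATP synthase from running in reverse when the membrane loses its potential, fell furthest of the members averaging 10 CPM or more. The gene (ENSG00000130770) lies at chr1:28236109-28246906 on the plus strand of GRCh38. In order of dose its libraries were at 56.5, 57.6 and 58.2 CPM with vehicle, at 51.2, 50.6 and 50.6 CPM with 8.4 ug/mL, at 46.1, 44.5 and 43.4 CPM with 42 ug/mL and at 36.1, 30.2 and 33.8 CPM with 210 ug/mL of Coptidis Rhizoma. The 4 groups did not overlap, and each dose was lower than the one before it. Against vehicle the log2 change was -0.18 at 8.4 ug/mL (adjusted p = 0.0217), -0.36 at 42 ug/mL (adjusted p = 3.43e-07), then -0.78 ± 0.06 at 210 ug/mL (adjusted p = 4.11e-17).

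**Figure D3:**
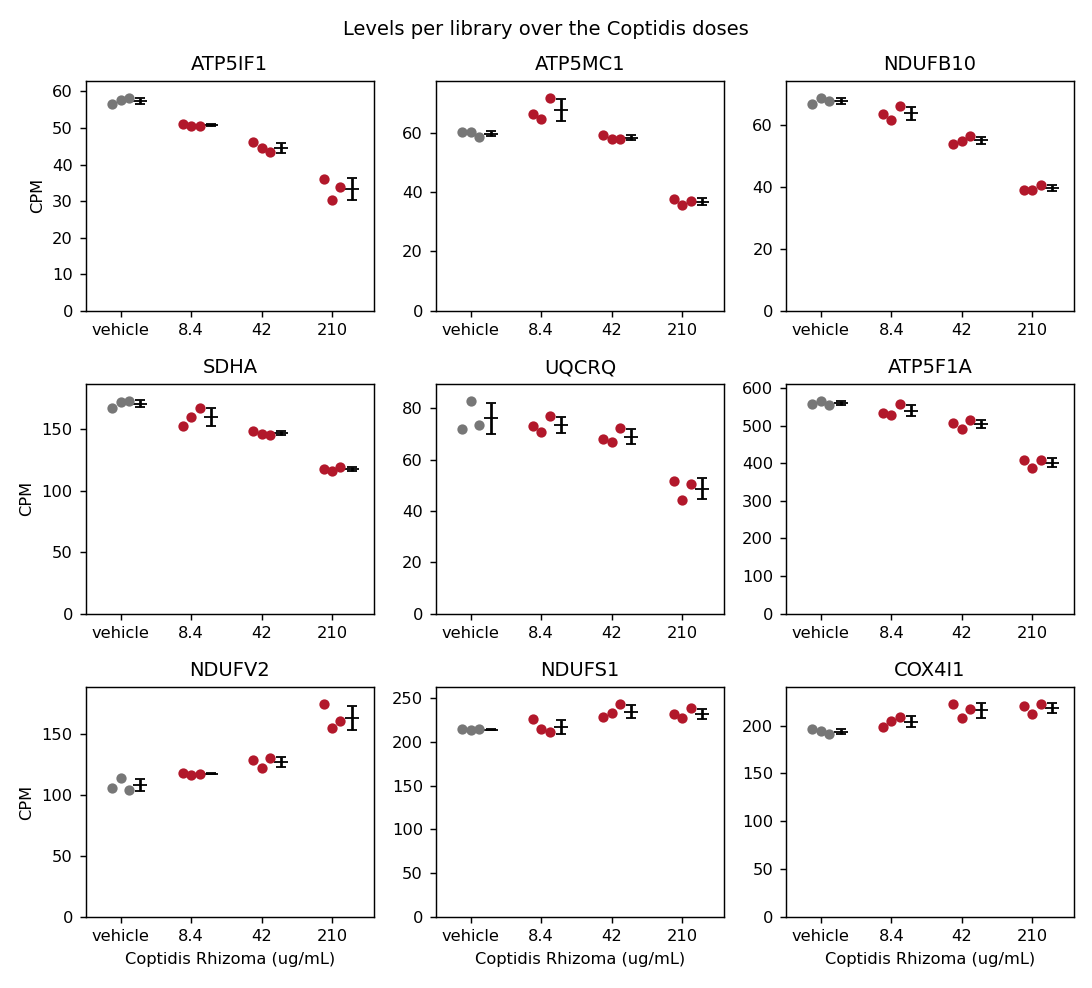
CPM (y axis, linear) of 9 members in each library of the vehicle (grey) and Coptidis Rhizoma 8.4, 42 and 210 ug/mL groups (x axis, low to high dose), with the mean and SD of 3 libraries as bars. ATP5IF1 steps down at every dose, ATP5MC1, UQCRQ and ATP5F1A drop at the top dose, and NDUFV2 steps up.

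Complex I, the NADH dehydrogenase, was read by module, and the differences between modules were not tested. The membrane-arm families NDUFB and NDUFC had 8 of 13 tested genes lower and 0 higher at Coptidis Rhizoma 210 ug/mL, with a median of -0.294, against 34.5% of all genes lower and 34.8% higher. The N module, which binds NADH and takes its electrons, had 3 higher and 3 lower of 8, with a median of 0.002, close to those shares, and the 7 flavin and iron-sulfur core subunits 2 higher and 3 lower, with a median of -0.099. NDUFV1, NDUFV2 and NDUFS1 belong to both sets. The counts of the N module and of the core therefore overlap and are not independent of each other. At 42 ug/mL the N module had 5 of 8 higher and 0 lower (median 0.143) and the core subunits 4 of 7 higher and 0 lower (median 0.131), against 23.4% of all genes higher and 23.5% lower, while complex I as a whole had 9 higher and 6 lower of 38. These rises at 42 ug/mL depended on the scale: with libraries scaled by their totals alone the N module had 0 of 8 higher and 3 lower (median -0.019) and the core 0 of 7 higher and 3 lower (median -0.031). At 210 ug/mL that scaling gave 1 higher and 4 lower in the N module, and likewise in the core. Because it shifts the median of all genes downward, the shares of all genes given here do not serve for these counts.

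NDUFB10 (ENSG00000140990, chr16:1959508-1961975, plus strand), an accessory subunit of the membrane arm, fell as far as ATP5IF1. It was at 66.8, 68.8 and 68.0 CPM with vehicle, at 63.55, 61.8 and 66.2 CPM with 8.4 ug/mL, at 54.0, 54.9 and 56.4 CPM with 42 ug/mL and at 38.95, 39.15 and 40.8 CPM with 210 ug/mL of Coptidis Rhizoma. The change against vehicle was -0.30 at 42 ug/mL (adjusted p = 2.18e-06), then -0.78 ± 0.05 at 210 ug/mL (adjusted p = 1.68e-18), and the 8.4 ug/mL group was not called. Other accessory genes of complex I that fell at 210 ug/mL included NDUFB1 (-0.59), NDUFA2 (-0.51), NDUFA11 (-0.45), NDUFS6 (-0.44) and NDUFB7 (-0.42).

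NDUFV2 (ENSG00000178127, chr18:9102630-9134345, plus strand), an iron-sulfur subunit of the NADH-binding module, went the other way. It was at 106, 114 and 104 CPM with vehicle, at 118, 117 and 118 CPM with 8.4 ug/mL, at 128, 122 and 130 CPM with 42 ug/mL and at 174.5, 155 and 160 CPM with 210 ug/mL of Coptidis Rhizoma. Every extract library lay above every vehicle library, and the change was called at 42 ug/mL (0.23, adjusted p = 0.00053) and again at 210 ug/mL (0.60 ± 0.06, adjusted p = 1.56e-13). The call at 42 ug/mL was lost when libraries were scaled by their totals alone (0.07, adjusted p = 0.332). Pseudogene counts were 0.906% of the counts of NDUFV2 and its pseudogenes together. NDUFS1, the largest iron-sulfur subunit of the same module, rose by less, to 232, 227 and 238 CPM at 210 ug/mL, against 214, 213 and 215 CPM with vehicle (0.12 ± 0.03, adjusted p = 0.000869), and its neighbour NDUFV1, which carries the flavin, was called at 42 ug/mL (0.16) but not at 210 ug/mL (0.06, adjusted p = 0.285). NDUFS4, an accessory subunit of that module, was called higher at both doses (0.24 at 42 ug/mL and 0.23 at 210 ug/mL). Scaled by library totals alone, NDUFV1 (-0.01, adjusted p = 0.933), NDUFS1 (-0.03, adjusted p = 0.45) and NDUFS4 (0.08, adjusted p = 0.465) lost their calls at 42 ug/mL, as did NDUFS4 at 210 ug/mL (0.11, adjusted p = 0.22).

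Complex II, succinate dehydrogenase, also acts in the tricarboxylic acid cycle. Its flavoprotein gene SDHA (ENSG00000073578, chr5:218241-256700, plus strand) was at 167, 172 and 173 CPM with vehicle, at 152.6, 159.5 and 167.0 CPM with 8.4 ug/mL, at 148, 146 and 145 CPM with 42 ug/mL and at 118, 116 and 119 CPM with 210 ug/mL of Coptidis Rhizoma. The change was -0.10 at 8.4 ug/mL (adjusted p = 0.0435), -0.22 at 42 ug/mL (adjusted p = 2.99e-07), then -0.54 ± 0.03 at 210 ug/mL (adjusted p = 1.14e-19). SDHB, which encodes the iron-sulfur subunit that pairs with SDHA, was at 55.1, 54.6 and 53.8 CPM at 210 ug/mL and at 54.2, 51.6 and 55.4 CPM with vehicle, overlapping groups with a log2 change of 0.02 (adjusted p = 0.74). The membrane anchors SDHD (-0.28, adjusted p = 0.000101) and SDHC (-0.15, adjusted p = 0.0179) fell.

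In complex III, 3 genes fell at 210 ug/mL of Coptidis Rhizoma and 7 were not called, whereas 7 fell when libraries were scaled by their totals alone. That scaling shifts the median of all genes downward, and the share of all genes it calls is not given. The larger count is therefore not read as a result about complex III. UQCRQ, a small subunit, was at 51.5, 44.2 and 50.4 CPM with the extract and at 71.8, 82.7 and 73.4 CPM with vehicle (-0.64 ± 0.09, adjusted p = 1.5e-08). UQCR10, another small subunit, was at 67.1, 68.8 and 69.4 CPM with the extract and at 107.8, 105.2 and 105.4 CPM with vehicle (-0.63 ± 0.07, adjusted p = 1.63e-10). The core gene UQCRC2 was at 215, 207 and 206 CPM with the extract and at 291, 296 and 302 CPM with vehicle (-0.50 ± 0.03, adjusted p = 9.09e-19). Its partner core gene UQCRC1 was at 174, 170 and 173 CPM with the extract and at 166.5, 177.5 and 174.7 CPM with vehicle, a change of -0.01 (adjusted p = 0.918). The catalytic genes UQCRFS1, the Rieske protein (-0.00, adjusted p = 0.996), and CYC1, cytochrome c1 (-0.12, adjusted p = 0.162), were not called either. At 8.4 ug/mL the picture differed: UQCRFS1 (0.28, adjusted p = 0.0117), CYC1 (0.25, adjusted p = 0.0124) and UQCR11 (0.21) were called higher. None of the 3 calls held when libraries were scaled by their totals alone, at 0.13 (adjusted p = 0.227) for UQCRFS1, 0.10 (adjusted p = 0.327) for CYC1 and 0.06 (adjusted p = 0.56) for UQCR11, and the 6 calls at this dose came to 2 without vehicle replicate 3.

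In complex IV, cytochrome c oxidase, 3 members rose and 2 fell at 210 ug/mL of Coptidis Rhizoma. Scaled by library totals alone, 2 rose and 5 fell. The share of all genes called under that scaling, which shifts their median downward, is not given. COX4I1, its regulatory subunit IV, was at 220.5, 212.7 and 222.3 CPM in Coptidis Rhizoma 210 ug/mL libraries and at 196.2, 194.2 and 191.2 CPM in vehicle libraries (0.17 ± 0.05, adjusted p = 0.00301). COX7A2L, which is known as a supercomplex assembly factor, was at 93.2, 93.0 and 95.6 CPM with the extract and at 80.1, 79.8 and 79.1 CPM with vehicle (0.24 ± 0.05, adjusted p = 1.17e-05). The members that fell were COX5B (-0.20 ± 0.07, adjusted p = 0.0145) and COX7C (-0.19, adjusted p = 0.0342), and the COX5B call was lost without replicate 2 of the extract group. COX5A (0.07, adjusted p = 0.41), COX8A (0.02, adjusted p = 0.828) and NDUFA4 (-0.09, adjusted p = 0.279) were not called. NDUFA4L2, the last of the 3 that rose, was at 2.40 ± 0.61 on the log2 scale (adjusted p = 0.000504). Its counts were so low that its libraries held 0.339, 0.473 and 0.485 CPM with the extract and 0.0386, 0.114 and 0.0801 CPM with vehicle. It may have entered the test only through groups where it is high, this one among them. Its rise is therefore not read as support for a rise in complex IV.

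**Figure D4:**
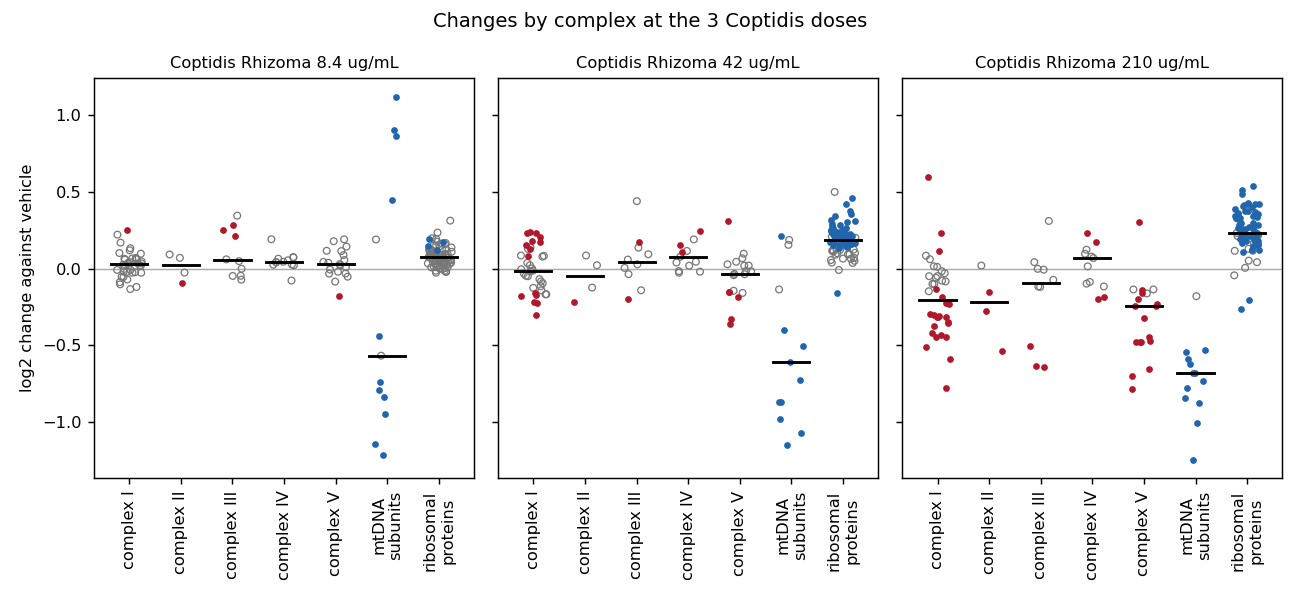
Log2 change against vehicle (y axis) of each tested gene at 8.4, 42 and 210 ug/mL of Coptidis Rhizoma (3 panels), for complexes I to V, the mitochondrially encoded subunits and the cytosolic ribosomal proteins (x axis). Filled points were called (red for members, blue for the other lists), open grey points were not, black lines are medians over all tested genes of a set, and 2 members lie outside each panel; at 210 ug/mL the medians of complexes I, II and V lie below 0, at -0.205, -0.215 and -0.245.

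Comparing the top dose directly with the bottom dose of Coptidis Rhizoma removes the vehicle libraries. Of 84 members 59 were called, 6 higher and 53 lower, against 65.8% of all genes called, 33.0% higher and 32.8% lower. ATP5MC1 fell furthest of the members averaging 10 CPM or more, at 37.7, 35.6 and 37.1 CPM with 210 ug/mL against 66.4, 64.8 and 71.8 CPM with 8.4 ug/mL (-0.88 ± 0.07, adjusted p = 2.97e-16). NDUFB10 (-0.69 ± 0.05, adjusted p = 2.15e-16), ATP5IF1 (-0.61 ± 0.06, adjusted p = 4.88e-13), UQCRC2 (-0.56, adjusted p = 1.43e-20) and SDHA (-0.44, adjusted p = 2.14e-16) fell here as well. NDUFV2 (0.47 ± 0.06, adjusted p = 1.61e-10), COX7A2L (0.21), NDUFS4 (0.18), COX6A1 (0.16), NDUFS1 (0.10) and NDUFA4L2 (1.94) rose. For NDUFA4L2 the limit set by the filter on low counts holds here too.

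The scale of the Coptidis Rhizoma libraries bears on these directions. When libraries were scaled by their totals alone, the median log2 change of all genes against vehicle was -0.151 at 8.4 ug/mL, -0.166 at 42 ug/mL and -0.122 at 210 ug/mL, and the calls came to 0 higher and 28 lower, 1 and 44, and 3 and 60 members at the 3 doses. The shares of all genes called under this scaling are not given beside these counts. UQCRC1 (-0.125, adjusted p = 0.0287), CYC1 (-0.235, adjusted p = 0.0058) and NDUFA4 (-0.205, adjusted p = 0.00985) were then called lower at 210 ug/mL. At 210 ug/mL under that scaling NDUFV2 (0.48, adjusted p = 4.59e-10) and COX7A2L (0.12, adjusted p = 0.0264) stayed called, COX4I1 (0.05, adjusted p = 0.393) and ATP5MK (0.19, adjusted p = 0.0985) did not, and NDUFS1 was at -0.00 (adjusted p = 0.965). Such a scaling moves all genes of a comparison by about the same amount. It therefore leaves the differences between the medians of complexes and lists in place, but it changes which members are called. The complex IV median of 0.070 is smaller than that shift. Across all alternatives at 210 ug/mL ATP5IF1 ran from -0.902 to -0.715, NDUFB10 from -0.896 to -0.761, SDHA from -0.658 to -0.523 and NDUFV2 from 0.477 to 0.634.

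Other genes of the pathway were read from lists beside the members. The 13 mitochondrially encoded subunits, partners of the members in complexes I, III, IV and V, summed to 69835 ± 4456 CPM with vehicle, 61229 ± 8259 CPM with 8.4 ug/mL, 47566 ± 4376 CPM with 42 ug/mL and 41438 ± 3073 CPM with 210 ug/mL of Coptidis Rhizoma (SD, n = 3 each). At 210 ug/mL 12 of 13 fell and 0 rose (median -0.680), led by MT-ND4L (-1.25). At 8.4 ug/mL 7 fell and 4 rose, against 7.39% of all genes lower and 8.58% higher, while only 6 nuclear members were called. MT-ND4 at -1.21 and MT-ND4L at -1.14 were among the lower, and MT-ND5 at 1.12 and MT-CYB at 0.87 among the higher. The sums of this group were uneven, at 51693 to 66029 CPM, and overlapped the 64723 to 72897 CPM of vehicle. With Zingiberis Rhizoma Recens 20 ug/mL 2 of the 13 rose and 0 fell, the highest at 1.085. The dose cannot be told apart here from the number in the sample titles. Of 48 assembly factors 28 fell and 7 rose at 210 ug/mL (median -0.199), against 34.5% of all genes lower and 34.8% higher, among them COA3 (-1.03) for complex IV, ATPAF1 (-1.01) for ATP synthase and ACAD9 (-0.76) for complex I.

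Of 13 tricarboxylic acid cycle enzymes 8 fell and 3 rose at 210 ug/mL, against the same shares of all genes, with fumarase FH at -0.835 and citrate synthase CS at -0.615. Among 11 transcriptional regulators of mitochondrial genes 4 rose and 3 fell: ESRRA (0.965), POLRMT (0.535), PPARGC1B (0.50) and PPRC1 (0.16) were higher, and PPARGC1A (-0.46), NRF1 (-0.44) and TFAM (-0.375) lower. The regulators' shares, 36.4% higher and 27.3% lower, were near those of all genes. Cytosolic ribosomal proteins, which like the members are mostly short, highly expressed housekeeping genes, went the opposite way, with 64 of 78 higher and 2 lower (median 0.235). Of the 9 hepatocyte markers 8 fell and 1 rose (median -0.838), and the 12 markers of other cell types summed to 76.5 to 90.1 CPM with the extract and 32.5 to 35.4 CPM with vehicle, nearly all CD68; their part in the members' result was not tested.

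Members with and without an NRF1 string in the window are set side by side as a description. At Coptidis Rhizoma 210 ug/mL, 10 of the 16 tested members with the string fell and 0 rose (median -0.236), against 24 lower and 7 higher of the 53 without it (median -0.135). For the ETS string 9 of 20 fell and 3 rose (median -0.107), against 25 and 4 of 49 without it (median -0.187), and for the YY1 string 5 of 11 fell and 1 rose (median -0.099), against 29 and 6 of 58 (median -0.158). Of all genes 34.5% were lower and 34.8% higher in this comparison. The share among all genes whose window holds a string is not given. The counts of members rest on few genes and were not tested.

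Scutellariae Radix 500 ug/mL moved members in both directions by small amounts. Complex I had 6 higher and 6 lower of 38 (median -0.003), complex II 0 and 2 of 4 (median -0.136), complex III 1 and 2 of 10 (median 0.006), complex IV 1 and 0 of 13 (median 0.066) and complex V 1 and 4 of 19 (median -0.060), against 24.7% of all genes higher and 25.5% lower. NDUFC2, a membrane-arm subunit of complex I, fell furthest of the called members averaging 10 CPM or more, at 175.6, 175.1 and 181.3 CPM with the extract and 244.0, 249.6 and 231.5 CPM with vehicle (-0.45 ± 0.07, adjusted p = 4.5e-07). NDUFB10 was at 51.8, 51.5 and 52.9 CPM with the extract and 66.8, 68.8 and 68.0 CPM with vehicle (-0.38 ± 0.05, adjusted p = 1.2e-08). ATP5IF1 was at 47.2, 44.9 and 46.4 CPM with the extract and 56.5, 57.6 and 58.2 CPM with vehicle (-0.32 ± 0.06, adjusted p = 4.41e-06). None of the 3 overlapped between the groups. SDHA (-0.24), SDHB (-0.18), ATP5F1A (-0.25) and UQCRC2 (-0.21) also fell.

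Of the members averaging 10 CPM or more that rose with Scutellariae Radix 500 ug/mL, the furthest was ATP5MK (ENSG00000173915, chr10:103389041-103396492, minus strand), at 44.1, 46.7 and 52.0 CPM with the extract and 37.0, 35.2 and 34.9 CPM with vehicle (0.41 ± 0.10, adjusted p = 0.000625). NDUFB5, another membrane-arm subunit, was at 64.4, 63.8 and 68.15 CPM with the extract and 58.1, 57.2 and 53.8 CPM with vehicle (0.21 ± 0.06, adjusted p = 0.00165). NDUFV3, a small subunit of the NADH-binding module, was at 44.4, 42.9 and 46.6 CPM with the extract and 37.3, 39.4 and 39.0 CPM with vehicle (0.21 ± 0.05, adjusted p = 0.000519). COX7A2L (0.18) and NDUFV2 (0.14, adjusted p = 0.0363) were among the others. Among the NDUFB and NDUFC genes, NDUFC2 and NDUFB10 were lower and NDUFB5 higher.

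Against its own bottom dose, Scutellariae Radix 500 ug/mL had 13 members higher and 12 lower, with 49.9% of all genes called (24.5% higher and 25.4% lower), and 19 higher and 10 lower when libraries were scaled by their totals alone. The share of all genes called under that scaling is not given. NDUFC2 (-0.31, adjusted p = 0.000217), NDUFB10 (-0.29, adjusted p = 3.36e-06), ATP5IF1 (-0.21, adjusted p = 0.00172) and SDHA (-0.17, adjusted p = 3.56e-05) were lower, and ATP5MK (0.40, adjusted p = 0.00105), NDUFB5 (0.28, adjusted p = 5.96e-05) and NDUFV2 (0.18, adjusted p = 0.00616) higher. At 100 ug/mL a different set was called against vehicle, with ATP5F1D (0.27), ATP5MC1 (0.26), NDUFB7 (0.22) and NDUFV1 (0.20) higher and UQCRC2 (-0.11) lower. In the lists, 500 ug/mL is set against vehicle, where 24.7% of all genes were higher and 25.5% lower. There 4 of 13 mitochondrially encoded subunits (30.8%) rose and 0 fell, and the share that rose was near that of all genes. Of 78 ribosomal proteins 47 rose and 0 fell, and all 9 hepatocyte markers fell (median -0.583). The part of these lists in the members' result was not tested.

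With Zingiberis Rhizoma Recens 500 ug/mL most of the calls were on the lower side, in complexes I, II and V. Complex I had 1 higher and 10 lower of 38 (median -0.070), complex II 0 and 2 of 4 (median -0.169), complex III 0 and 1 of 10 (median 0.022), complex IV 2 and 1 of 13 (median -0.005) and complex V 0 and 7 of 19 (median -0.129), against 23.5% of all genes higher and 22.5% lower. The 10 of 38 in complex I (26.3%) were thus near the share of all genes. ATP5IF1 was at 40.35, 39.0 and 41.3 CPM with the extract and 56.5, 57.6 and 58.2 CPM with vehicle (-0.51 ± 0.06, adjusted p = 9.59e-11). NDUFB10 was at 50.2, 51.9 and 51.2 CPM with the extract and 66.8, 68.8 and 68.0 CPM with vehicle (-0.41 ± 0.05, adjusted p = 2.98e-09). UQCR10 was at 80.75, 83.8 and 86.9 CPM with the extract and 107.8, 105.2 and 105.4 CPM with vehicle (-0.34 ± 0.07, adjusted p = 0.000135). For these 3 the groups did not overlap.

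The succinate dehydrogenase pair SDHA (-0.25, adjusted p = 1.19e-08) and SDHB (-0.22, adjusted p = 0.000595) both fell with Zingiberis Rhizoma Recens 500 ug/mL, as did ATP5F1A (-0.20, adjusted p = 0.000112) and ATP5F1B (-0.17, adjusted p = 2.48e-05). NDUFV2 rose, at 118.9, 121.5 and 118.1 CPM with the extract and 106, 114 and 104 CPM with vehicle (0.15 ± 0.06, adjusted p = 0.0314). COX4I1 was just inside the threshold (0.12 ± 0.05, adjusted p = 0.05), at 195.8, 217.8 and 219.3 CPM with the extract and 196.2, 194.2 and 191.2 CPM with vehicle, and the groups overlapped. At 100 ug/mL NDUFB10 (-0.21), ATP5IF1 (-0.20), SDHB (-0.15) and SDHA (-0.13) fell, and at 20 ug/mL NDUFS7 (0.25) and UQCRHL (0.71) rose. Against its own bottom dose, the top dose had 3 members higher and 29 lower, with 48.1% of all genes called, 24.4% higher and 23.6% lower; NDUFB1 (-0.54), ATP5IF1 (-0.49, adjusted p = 2.86e-10), ATP5ME (-0.46) and UQCR10 (-0.44) were lower and NDUFV2 higher (0.18, adjusted p = 0.00713).

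With Zingiberis Rhizoma 500 ug/mL, complex V had 2 higher and 6 lower of 19 (median -0.022) and complex I 2 and 2 of 38 (median 0.003), against 21.5% of all genes higher and 20.9% lower. ATP5IF1 was at 50.2, 41.15 and 46.0 CPM with the extract and 56.5, 57.6 and 58.2 CPM with vehicle (-0.33 ± 0.06, adjusted p = 2.79e-06). SDHA was at 147.3, 153.7 and 143.5 CPM with the extract and 167, 172 and 173 CPM with vehicle (-0.20 ± 0.03, adjusted p = 1.6e-06). NDUFB10 was at 66.7, 52.9 and 54.0 CPM with the extract and 66.8, 68.8 and 68.0 CPM with vehicle (-0.23 ± 0.05, adjusted p = 0.000176). For NDUFB10 the first extract library, the one that stands apart, was close to vehicle, and without it the change was -0.35.

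Of the members that rose with Zingiberis Rhizoma 500 ug/mL, UQCR11, a small subunit of complex III, was at 86.7, 64.8 and 64.55 CPM with the extract and 57.0, 58.15 and 52.8 CPM with vehicle (0.36 ± 0.07, adjusted p = 4.91e-05). ATP5F1E was at 344, 234 and 267 CPM with the extract and 235, 240 and 221 CPM with vehicle (0.28 ± 0.08, adjusted p = 0.00408). ATP5MK was at 46.4, 36.3 and 46.7 CPM with the extract and 37.0, 35.2 and 34.9 CPM with vehicle (0.27 ± 0.10, adjusted p = 0.0303). The first library was the highest or near it in each, and without the libraries that stand apart ATP5F1E (0.11, adjusted p = 0.226), ATP5MK (0.21, adjusted p = 0.0797) and COX8A (0.02, adjusted p = 0.768) were no longer called. Leaving those libraries out gave 3 members higher and 18 lower in place of 6 and 10, scaling by totals alone 4 and 12, and leaving out replicate 2 gave 17 and 9. The shares of all genes called under these alternatives, here and in the next comparison, are not given. Against its own bottom dose, Zingiberis Rhizoma 500 ug/mL had 10 members higher and 10 lower, with 41.0% of all genes called (20.9% higher and 20.1% lower), and 4 and 11 when scaled by totals alone; the 20 calls came to 13 without replicate 1 of the 20 ug/mL group.

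Between the 2 gingers at 500 ug/mL, Zingiberis Rhizoma Recens against Zingiberis Rhizoma, edgeR called no member, with 1.83% of all genes called. An unadjusted p under 0.05 was reached by 29 members, and DESeq2 called 5. The share of all genes at that unadjusted cut is not given, so the 29 are not read as a shift of the members. The lowest adjusted p belonged to UQCR10 (-0.26 ± 0.07, adjusted p = 0.0503), and ATP5IF1 (-0.18, adjusted p = 0.0923) and NDUFB10 (-0.18, adjusted p = 0.0607) did not pass either. With replicate 2 of Zingiberis Rhizoma left out 19 members were called, with its replicate 3 left out 5 and with replicate 1 of Zingiberis Rhizoma Recens left out 1. In both gingers all 12 genes of a hypoxia-response list rose, with medians of 1.038 for Zingiberis Rhizoma Recens and 1.048 for Zingiberis Rhizoma against vehicle, among them CA9 (3.26) and PDK1 (1.06), the kinase that limits pyruvate entry into mitochondria, for the fresh form. Of all genes 23.5% were higher with Zingiberis Rhizoma Recens and 21.5% with Zingiberis Rhizoma at this dose. NDUFA4L2, itself a known hypoxia target, was at 0.525, 0.177 and 0.188 CPM with Zingiberis Rhizoma Recens and 0.0386, 0.114 and 0.0801 CPM with vehicle (1.85 ± 0.66, adjusted p = 0.0185), and its change with Zingiberis Rhizoma was 1.27 (adjusted p = 0.149). This gene may have passed the filter on low counts only through groups where it is high, so its rise is not read as support. No mitochondrially encoded subunit was called for either ginger at 500 ug/mL against vehicle.

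Wortmannin lowered 6 members and raised 3, against 16.0% and 16.2% of all genes. NDUFS5 was at 89.6, 83.3 and 80.6 CPM with wortmannin and 100.8, 101.3 and 100.5 CPM with vehicle (-0.26 ± 0.05, adjusted p = 7.6e-05). SDHB was at 44.9, 47.3 and 44.35 CPM with wortmannin and 54.2, 51.6 and 55.4 CPM with vehicle (-0.24 ± 0.05, adjusted p = 0.000358). NDUFS6, a zinc-binding accessory subunit of complex I, was at 51.8, 49.97 and 51.9 CPM with wortmannin and 59.7, 63.05 and 58.2 CPM with vehicle (-0.23 ± 0.08, adjusted p = 0.0149). The groups did not overlap for any of the 3.

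On the higher side wortmannin moved NDUFB5, at 63.1, 64.65 and 66.6 CPM against 58.1, 57.2 and 53.8 CPM with vehicle (0.20 ± 0.06, adjusted p = 0.00531), ATP5MC1 (0.18 ± 0.06, adjusted p = 0.0288) and NDUFV1 (0.14 ± 0.05, adjusted p = 0.0326). The ATP5MC1 and NDUFV1 calls were lost when single libraries were left out, and NDUFB5 was lost without vehicle replicate 3 (adjusted p = 0.0551). ATP5IF1 was at 57.0, 59.2 and 58.2 CPM with wortmannin, inside or just above the vehicle values (0.02, adjusted p = 0.851), and NDUFB10 (-0.07, adjusted p = 0.34) and SDHA (-0.03, adjusted p = 0.49) were not called. Among regulators 5 of 11 fell, NRF1 (-0.26) and TFAM (-0.25) among them, and PPARGC1A rose (0.42), while cytochrome c (CYCS) fell (-0.26).

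**Figure D5:**
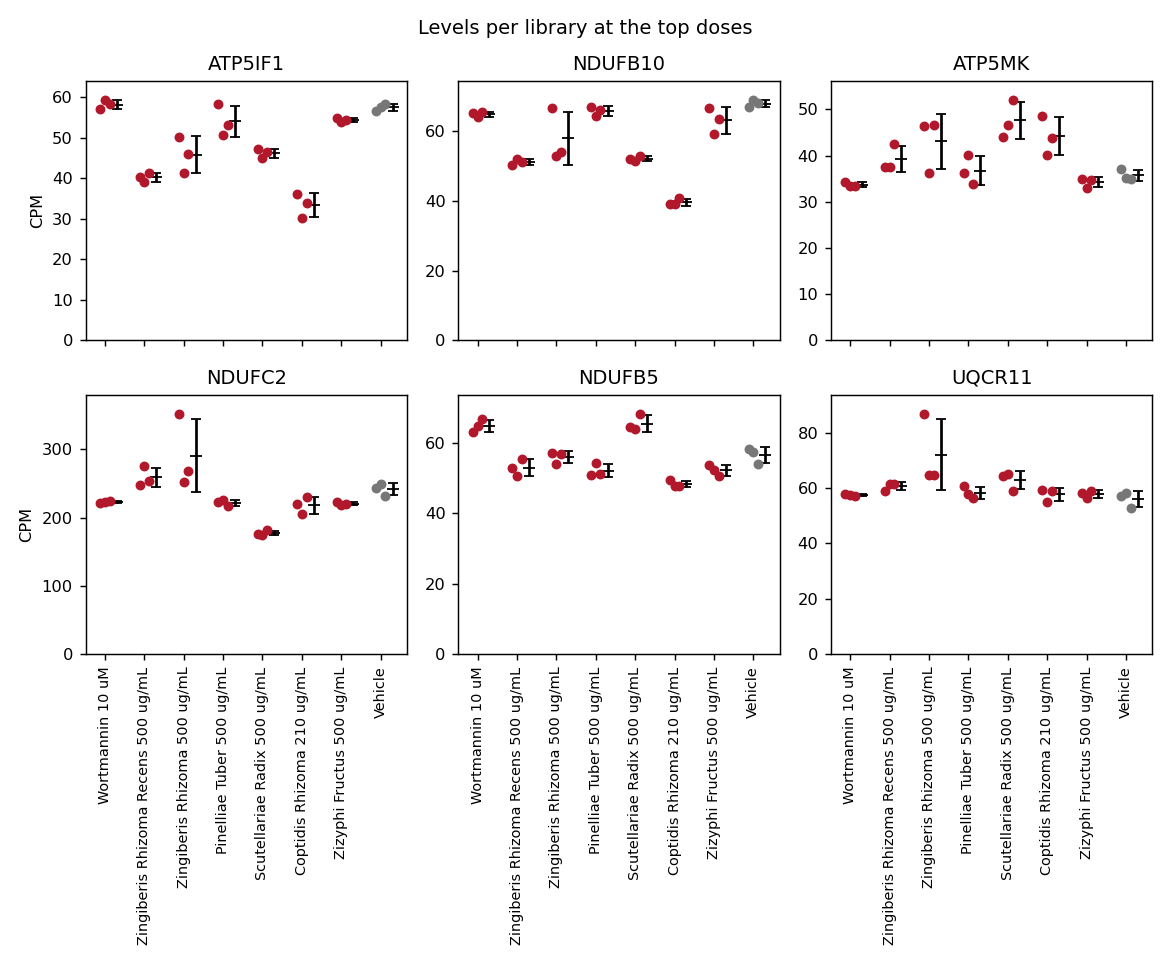
CPM (y axis, linear) of ATP5IF1, NDUFB10, ATP5MK, NDUFC2, NDUFB5 and UQCR11 in each library of the wortmannin and top-dose groups (x axis), with vehicle at the right and bars for the mean and SD of 3 libraries. ATP5IF1 and NDUFB10 are lowest with Coptidis Rhizoma 210 ug/mL, at 30.2 to 36.1 CPM and 38.95 to 40.8 CPM.

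Pinelliae Tuber and Zizyphi Fructus gave few calls, and those rested on single libraries. With Pinelliae Tuber 500 ug/mL NDUFA6, an accessory subunit of complex I, was at 52.8, 43.6 and 49.2 CPM against 56.3, 58.15 and 55.8 CPM with vehicle (-0.22 ± 0.06, adjusted p = 0.0174), a call lost without vehicle replicate 2 or either of extract replicates 2 and 3. Pinelliae Tuber 500 ug/mL against 20 ug/mL gave 0 calls by edgeR, 1 member at an unadjusted p under 0.05 and 0 by DESeq2, with 1.9% of all genes called. With Zizyphi Fructus 20 ug/mL ATP5F1D (0.40, adjusted p = 0.00399), UQCRFS1 (0.34, adjusted p = 0.021), CYC1 (0.29, adjusted p = 0.027) and COX5A (0.26, adjusted p = 0.0454) were higher. In each of these 4 the first library, which stands apart from its group, was the highest: ATP5F1D was at 59.75, 49.65 and 46.4 CPM with the extract and 39.2, 40.2 and 38.4 CPM with vehicle. Without that library 0 members were called, without replicates 2 and 3 of the group 2 and 26, and without vehicle replicates 1, 2 and 3 there were 1, 2 and 1. Zizyphi Fructus 500 ug/mL against 20 ug/mL gave 0 higher and 6 lower, with 7.22% of all genes called and 2.82% lower, and 0 without that same library, 46 without replicate 3 of the 20 ug/mL group and 1 without replicate 2 or 3 of the 500 ug/mL group.

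Side by side, the changes of the recurrent genes against the shared vehicle libraries were as follows. ATP5IF1 was at -0.78 with Coptidis Rhizoma 210 ug/mL, -0.51 with Zingiberis Rhizoma Recens, -0.33 with Zingiberis Rhizoma and -0.32 with Scutellariae Radix at 500 ug/mL, all called. With Pinelliae Tuber 500 ug/mL it was at -0.09 (adjusted p = 0.421) and with Zizyphi Fructus 500 ug/mL at -0.08 (adjusted p = 0.488). NDUFB10 was at -0.78, -0.41, -0.23 and -0.38 in the first 4 of these, and at -0.05 (adjusted p = 0.688) and -0.11 (adjusted p = 0.257) in the last 2. SDHA was at -0.54, -0.25, -0.20 and -0.24, and NDUFV2 at 0.60, 0.15, 0.26 and 0.14, in the same first 4 groups. SDHB parted from SDHA: it was at -0.22, -0.17 and -0.18 with the gingers and Scutellariae Radix, all called, but at 0.02 with Coptidis Rhizoma. Since vehicle is common to all, the comparisons between doses of 1 extract given above are the ones that do not rest on it.

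Of the 84 tested members 15 passed in none of the 19 comparisons with vehicle: NDUFA1, NDUFA9, NDUFB2, NDUFB8, NDUFB9 and the readthrough NDUFC2-KCTD14 in complex I, UQCRB, UQCRC1 and UQCRH in complex III, COX6A1, COX6C, COX7A2, COX7B and NDUFA4 in complex IV, and ATP5MJ in complex V. A p that misses the threshold does not show that a gene did not change. NDUFC2, NDUFB5, NDUFB7, ATP5MC1 and ATP5F1D were called higher in at least 1 comparison and lower in at least 1 more: NDUFC2, for example, was at -0.45 with Scutellariae Radix 500 ug/mL and 0.27 with Zingiberis Rhizoma 500 ug/mL (adjusted p = 0.00151), where its libraries were at 351.9, 252.5 and 267.9 CPM.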

How the data were processed

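mRNA of 59 HepG2 libraries was measured by paired-end sequencing of directional libraries, per the labels' protocols. The authors deposited expected counts per gene, made with RSEM 1.3.3 after FastQC 0.11.9, Trim Galore 0.6.5 and STAR 2.7.3a on GRCh38, per the submitters' processing notes. The sources used here name neither the annotation nor the strand setting, so reads shared with antisense or overlapping genes could not be checked. Of the nonzero values 24.44% are not whole, and all were rounded to whole counts. The table's 267 columns include 208 that match no sample here and were not used. Symbols, positions (GRCh38) and lengths came from GENCODE 29, and 56558 of 60675 IDs matched a symbol. Promoter windows came from RefSeq.

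All 59 libraries entered 1 model of 20 group means in edgeR 4.0.16 (TMM scaling, filterByExpr, glmQLFit, glmQLFTest; R 4.3.3, limma 3.58.1), with Benjamini-Hochberg adjustment over 16641 genes and a threshold of 0.05. The fit had 39 residual degrees of freedom and a biological coefficient of variation of 4.4%. Standard errors are the log2 change divided by the root of the F statistic, and CPM values use TMM-scaled library sizes. Libraries were compared by a mean chi-square per gene over genes with at least 100 counts in a pair, which ran from 2.06 to 39.1, and a library above 15 against both others of its group was taken to stand apart. There were 26 comparisons: 19 with vehicle, 6 of top with bottom dose and 1 between gingers. Named members are, per top dose and wortmannin, up to 3 called in each direction averaging 10 CPM or more, with the core subunits and paralogs; others named were chosen after their values were seen. The procedure was tested on simulated data with fewer groups than the main fit. It recovered 6 of 50 genes with a true log2 change of 0.2, 33 of 50 at 0.4 and 43 of 50 at 0.8. Small changes were thus often missed there. Alternatives used DESeq2 1.42.0, other scaling, filters and sample sets. Levels per kilobase of the principal transcript were added after seeing the data. The members and lists were chosen with earlier results of these data known, so no list is independent support. Sums and means cover counting error and library spread only, and depth limits the paralogs with few counts. Figures were drawn with matplotlib 3.10.9.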

Additional observations from a re-analysis of the deposited data

How the results depend on the processing

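Counts of members called that moved by more than 1.5 times are given by alternative, with the main counts in the text, and the cause was not tested. Here and above, counts under an alternative stand without the share of all genes called under it. They therefore do not show whether the members moved more than other genes. DESeq2 called 10 for Zizyphi Fructus 500 against 20 ug/mL, 2 for Pinelliae Tuber 500 ug/mL, 7 for Zingiberis Rhizoma Recens 100 ug/mL and 5 between the gingers, where RLE size factors and the replicate block gave 1 each. Fitting only the groups compared gave 0 for Zizyphi Fructus 20 ug/mL and for its top against bottom dose, 12 and 7 for its 500 and 100 ug/mL, 1 and 16 for Zingiberis Rhizoma 20 and 100 ug/mL, 9, 19 and 44 for Zingiberis Rhizoma Recens 20, 100 and 500 ug/mL, 2, 12 and 42 for Scutellariae Radix 20, 100 and 500 ug/mL, 15 and 45 for Coptidis Rhizoma 8.4 and 42 ug/mL, 4 and 3 for Pinelliae Tuber 20 and 500 ug/mL and 35 for wortmannin. Scaling by library totals gave 12 for Zingiberis Rhizoma Recens 100 ug/mL, 6 for Zingiberis Rhizoma 100 ug/mL, and 28 and 45 for Coptidis Rhizoma 8.4 and 42 ug/mL.

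Without the filter on low counts the calls were 16 for wortmannin, 10 and 8 for Zingiberis Rhizoma Recens 20 and 100 ug/mL, 5 and 27 for Zingiberis Rhizoma 100 and 500 ug/mL, 21 between the gingers, 3, 5 and 6 for Pinelliae Tuber 20, 100 and 500 ug/mL, 5 and 9 for Scutellariae Radix 20 and 100 ug/mL, and 13, 2 and 4 for Zizyphi Fructus 20, 100 and 500 ug/mL, with 27 for its top against bottom dose. Without the libraries that stand apart they were 21 for wortmannin, 8 and 14 for Zingiberis Rhizoma Recens 20 and 100 ug/mL, 8 for Zingiberis Rhizoma 100 ug/mL, 1 and 5 for Pinelliae Tuber 20 and 500 ug/mL, 2 and 10 for Scutellariae Radix 20 and 100 ug/mL, 11 for Coptidis Rhizoma 8.4 ug/mL, 2 and 3 for Zizyphi Fructus 20 and 500 ug/mL, and 0 for its top against bottom dose. Counts of pseudogenes added to their member left all 26 counts within 1.5 times.

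Leaving out 1 library at a time gave 4 to 6 calls for wortmannin, 0 to 5, 3 to 4 and 19 to 21 for Zingiberis Rhizoma Recens 20, 100 and 500 ug/mL (at 20 ug/mL 5 without its replicate 2, 1 without its replicate 1, and 0 without its replicate 3 or vehicle replicate 1 or 2), 0 to 0, 2 to 4 and 13 to 26 for Zingiberis Rhizoma, 0 to 0, 0 to 0 and 0 to 1 for Pinelliae Tuber, 0 to 1 (1 without replicate 2 of the 20 ug/mL group), 4 to 7 and 16 to 21 for Scutellariae Radix, 2 to 6 for Coptidis Rhizoma 8.4 ug/mL, 18 to 26 for 42 ug/mL and 44 to 51 for 210 ug/mL, and 0 to 26, 0 to 0 and 0 to 0 for Zizyphi Fructus. For top against bottom dose the ranges were 26 to 35 for Zingiberis Rhizoma Recens, 13 to 24 for Zingiberis Rhizoma, 0 to 0 for Pinelliae Tuber, 21 to 27 for Scutellariae Radix, 48 to 56 for Coptidis Rhizoma and 0 to 46 for Zizyphi Fructus, and between the gingers 0 to 19.

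For named members, 1573 of the values under other settings stayed on their side of the threshold, 66 passed newly and 14 no longer passed. The 1 called value that turned was NDUFS1 at Coptidis Rhizoma 210 ug/mL, at -0.002 under library totals. Small changes that were not called could change sign and still count among the 1573. SDHB at Coptidis Rhizoma 210 ug/mL, for example, ran from -0.098 to 0.039 across the alternatives. With 1 library left out 1180 were the same, 11 passed newly and 57 no longer passed. Same-numbered replicates showed little joint deviation, with pair correlations of deviations from -0.062 to 0.077. With so few libraries per group, such values cannot show whether equal numbers share a culture or a run. For Scutellariae Radix 500 against 20 ug/mL all 6 libraries correlated best with their own number, a hint from the data only. Apart from the 1 call between the gingers, the replicate block moved no count by more than 1.5 times. Depth limits NDUFA4L2 and the other paralogs with few counts, whose calls rest on under 1 CPM.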
